A study of Mus musculus with 9 samples.

Results

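The genes described here are the 38 genes of autophagy initiation, membrane growth, conjugation, cargo binding and mTORC1 control that were listed by symbol, and all 38 were found among the 14905 genes of the deposited table. RNA was sequenced from macrophages of mouse visceral adipose tissue, obtained by a fluorescence sort on F4/80 and CD11b. The 5 KO libraries came from mice of genotype Nucb2-/- and the 4 WT libraries from wild type mice, all on the C57BL/6 background. Age, sex and diet are not given in the labels, which do not name the animal behind a library either. The name of the deposited table, which holds all 9 libraries, carries the letters HFD, an abbreviation the labels do not explain. The p-values below therefore refer to library-to-library spread, and some of that spread may be technical. The disrupted gene, Nucb2, codes for nucleobindin-2, which binds calcium and is also the precursor of the peptide nesfatin-1.

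Autophagy encloses cytoplasm in a double membrane and delivers it to the lysosome. The ULK1 kinase complex starts the process, a class III PI3-kinase marks the growing membrane with a lipid, WIPI, ATG2 and ATG9 proteins bring in lipid, and a pair of ubiquitin-like conjugation reactions attach ATG8 proteins such as LC3 to it. The kinase complex mTORC1 sits on the lysosome when amino acids are plentiful and restrains the ULK1 complex. In macrophages the same machinery takes part in lipid droplet breakdown and in the handling of engulfed material.

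Values are normalized counts, read counts divided by a factor for each library, with a floor of 1 in the deposited table. Nucb2 had 1493, 1466, 1623, 1165 and 1752 in KO replicates 1 to 5, and 4457, 4253, 5233 and 3311 in WT replicates 1 to 4. The ranges did not overlap, and the transcript was reduced, not lost, in the libraries labelled KO (log2 difference -1.52, SE 0.17, limma adjusted p = 0.00054). The log2 difference lay between -1.64 and -1.42 in all 20 alternatives, while the adjusted p was 0.052 with the replicate block and 0.12 within the 6 deeper libraries. Adgre1, Itgam and Csf1r, which encode F4/80, CD11b and the CSF1 receptor, were present throughout, with a lowest value of 19952 for Itgam. The read totals recovered from the steps between values were 51148955 to 85200097, with 6 deeper libraries (4 KO, 2 WT) and 3 shallower ones (1 KO, 2 WT). Of 10 marker lists, 3 had summed normalized counts that did not overlap between the groups. All 10 endothelial markers were in the table and summed to 5069 to 9689 in KO and 2064 to 4425 in WT. All 8 mast cell markers summed to 1849.5 to 3492 in KO and 6081 to 10799 in WT, with Fcer1a at the floor in all KO libraries. All 6 dendritic cell markers summed to 10693 to 13427 in KO and 6717 to 10307 in WT. The 8 macrophage markers summed to 1287305 to 1496745 in KO and 1284597 to 1445681 in WT. The mesothelial, fibroblast, adipocyte, neutrophil, T and NK cell and B cell sums overlapped as well. Mesothelial sums were 5629 to 18470 in KO and 2255 to 7637 in WT, and fibroblast sums 285537 to 444157 and 199943 to 334682. Mean sums were higher in KO for the mesothelial, fibroblast and neutrophil lists. They were lower in KO for the adipocyte, T and NK cell and B cell lists. The share of normalized counts on Rn45s, the ribosomal RNA precursor, was 1.84% to 2.16% in KO and 2.64% to 3.54% in WT. The part of these other cells and of ribosomal RNA in the values below was not tested, and in sorted bulk samples fewer cells of a type and less RNA per cell cannot be told apart.

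The comparison of KO with WT asked whether transcripts of the autophagy machinery and of mTORC1 control differ in these macrophages when Nucb2 is disrupted. None of the 38 genes passed an adjusted p of 0.05, in either direction, where 0.309% of all genes tested did (46 of 14905, limma with Benjamini-Hochberg adjustment): 0.181% higher in KO and 0.127% lower. Without adjustment 1 of the 38, Atg3, had a limma p under 0.05 (9.14% of all genes). On reads worked out from the values, limma-voom called 0 of the 38, beside 25 of all 14905 genes. It gave 2 of the 38 an unadjusted p under 0.05, beside 1341 of all 14905 genes. Atg3 is described with the conjugation enzymes. In all 38 the KO and WT ranges overlapped. Over all genes the ranges were apart in 3.15%, a share at which few or no such genes are to be looked for among 38. The log2 differences ran from -0.54 for Mlst8 to 0.46 for Atg2b, with 15 above and 23 below 0. Their median was -0.05 and their median size 0.15, beside 0.02 and 0.27 over all genes tested. Adjusted p-values lay between 0.55 and 0.998.

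**Figure D1:**
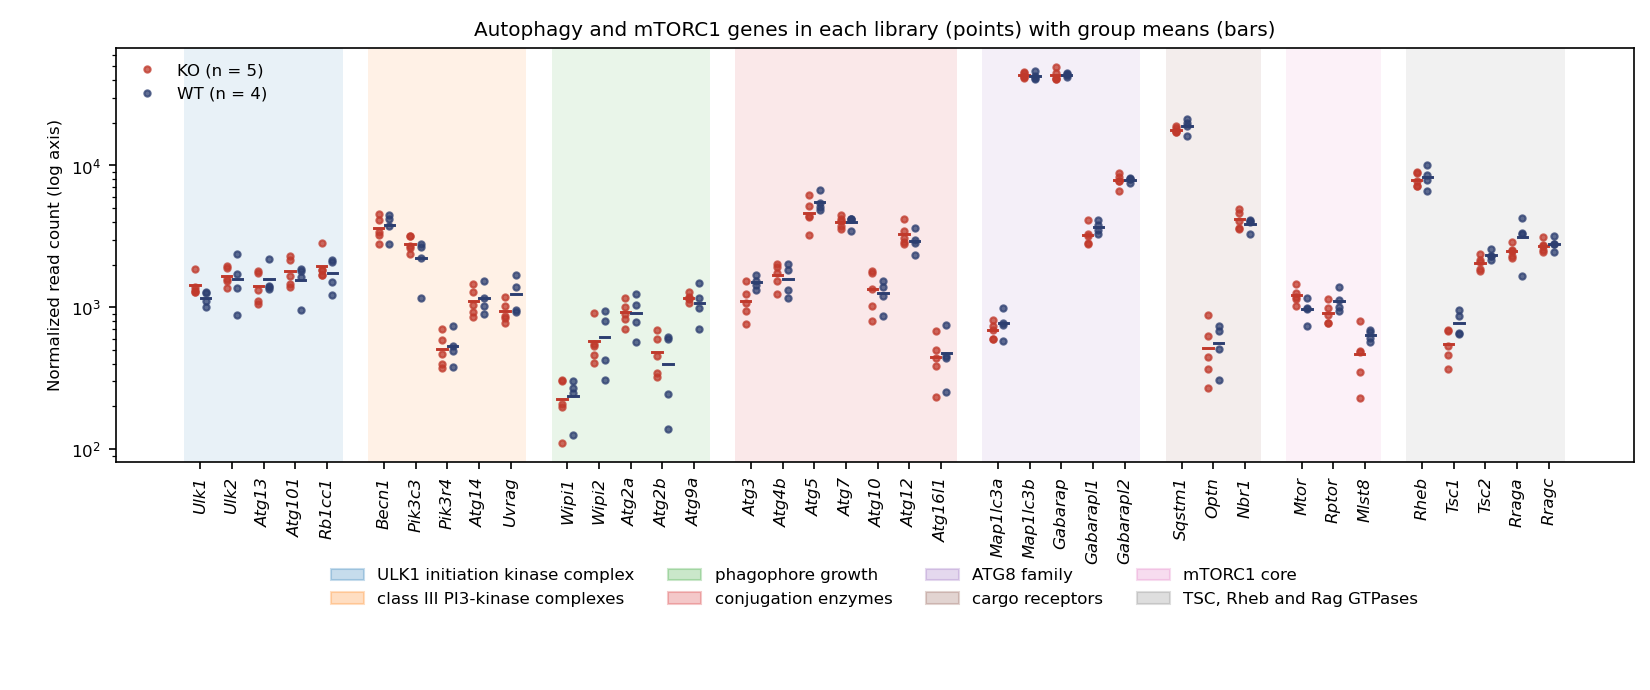
Normalized read count (y, log axis) of each of the 38 genes (x, grouped by step) in 5 KO and 4 WT libraries; points are libraries and bars are group means. KO and WT points overlap for all 38 genes, and Map1lc3b and Gabarap stand highest at about the same level in both groups.

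How large a difference the data leave room for was read from the 95% interval of each log2 difference. For 14 of the 38 genes the interval lay inside a change of 1.5 fold in both directions (28.0% of all genes), and for 34 it lay inside 2 fold (48.9% of all genes). The 4 with wider intervals were Wipi1, Atg2b, Mlst8 and Tsc1, each with a mean under 1000 normalized counts. The 38 genes were expressed above the typical gene of the table: 31 had a mean above the median gene's 649 normalized counts, and none had a library at the floor of 1.

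**Figure D2:**
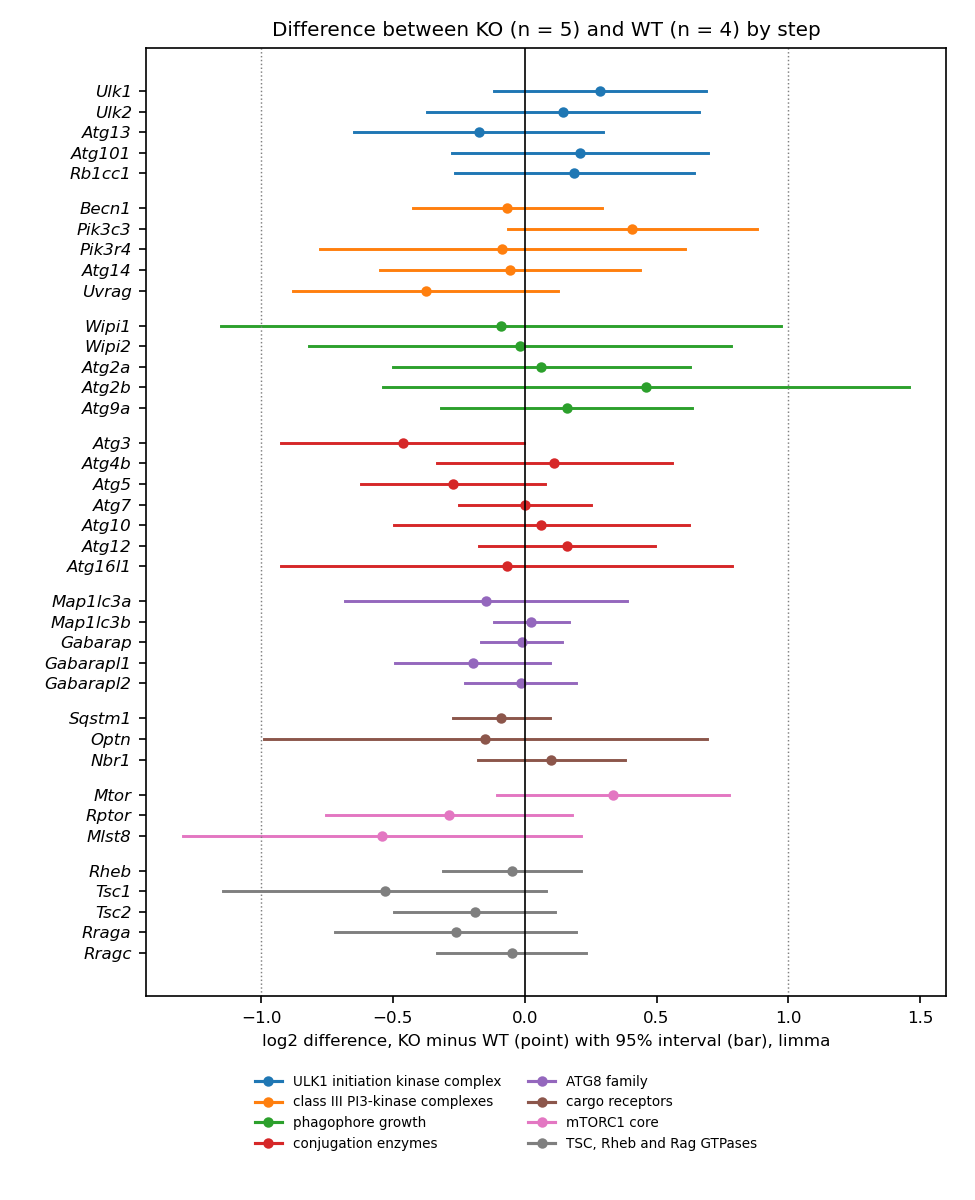
log2 difference KO minus WT (x) with its 95% interval for the 38 genes (y, coloured by step); dotted lines mark a change of 2 fold. The interval of Atg3 ends just below 0, and those of the other 37 genes include 0.

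Gene positions below are those of GENCODE M21 on GRCm38. The ULK1 complex consists of the kinases Ulk1 or Ulk2, the regulatory subunits Atg13 and Atg101, and the scaffold Rb1cc1 (FIP200). Its 5 genes had similar normalized counts, with means between 1307 (Ulk1) and 1865 (Rb1cc1). Per kilobase of exon they were less alike, with Atg101 at 1332, Atg13 at 406, Ulk2 at 283, Ulk1 at 250 and Rb1cc1 at 245. Ulk1 (chr5:110784488-110810097, minus strand) stood at 1273, 1313, 1857, 1385 and 1288 in KO replicates 1 to 5, and at 1282, 1266, 1099 and 998 in WT replicates 1 to 4. KO replicate 3 was the highest of the 9 and the WT replicates 3 and 4 the lowest, while the others lay close together. The log2 difference was 0.29 (SE 0.19, 95% interval -0.12 to 0.69, limma adjusted p = 0.70). Rb1cc1 had 1831, 2830, 1676, 1676 and 1823 in KO and 2078, 2160, 1213 and 1499 in WT. Here KO replicate 2 alone stood high, and the difference of 0.19 (interval -0.26 to 0.64) changed sign to -0.12 in the 6 deeper libraries. Ulk2, Atg13 and Atg101 differed by 0.15, -0.18 and 0.21. Within a library Ulk1 and Ulk2 were of like level per length of exon, with a ratio of 0.96 ± 0.25 in KO and 0.92 ± 0.45 in WT (n = 5 and 4, SD).

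The class III PI3-kinase complexes pair the lipid kinase Pik3c3 (VPS34) and its regulatory subunit Pik3r4 (VPS15) with Becn1 (beclin 1) and with either Atg14, for autophagy, or Uvrag, for endosomal traffic. Becn1 (chr11:101285952-101302286, minus strand) was the most abundant by normalized count, at 4541, 4115, 2806, 3417 and 3232 in KO and 4487, 3751, 4165 and 2777 in WT. The groups covered nearly the same span, and the log2 difference was -0.07 (SE 0.17, limma adjusted p = 0.93). Pik3c3 had 2706, 3158, 2612, 3176 and 2365 in KO and 2655, 1163, 2805 and 2237 in WT. WT replicate 2 was the lowest of all 9 by a wide margin. The log2 difference was 0.41 (SE 0.22, interval -0.06 to 0.88, limma adjusted p = 0.61). Without WT replicate 2 it was 0.12, and within the 6 deeper libraries, which include it, 0.72. Uvrag differed by -0.38, with a KO range of 776 to 1175 and a WT range of 929 to 1682, and Pik3r4 and Atg14 by -0.08 and -0.06.

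WIPI proteins read the lipid mark, the ATG2 proteins carry lipid from the endoplasmic reticulum and Atg9a scrambles lipid between membrane leaflets. These 5 genes were the lowest set by median, and 4 of them lay under 1000 normalized counts. Atg9a was the highest, at 1273, 1155, 1140.2, 1073 and 1183 in KO and 1158, 700.1, 1473 and 986 in WT. The KO libraries lay within a narrow band that the WT libraries straddled, with a coefficient of variation of 6.25% in KO and 29.9% in WT. Its log2 difference was 0.16 (SE 0.22, limma adjusted p = 0.86). Atg2b had 454, 598, 693, 320.2 and 346 in KO and 594, 246, 621 and 138 in WT. The WT libraries split into a high and a low pair, and the log2 difference of 0.46 had an interval from -0.54 to 1.46. Without WT replicate 4, the lowest library, it was 0.04, and without WT replicate 3 it was 0.76. Atg2a exceeded Atg2b per length of exon in all 9 libraries, by 2.47 ± 0.93 times in KO and 3.60 ± 2.15 times in WT (n = 5 and 4, SD). Per length of exon Wipi2 exceeded Wipi1 in all libraries but WT replicate 1, where Wipi1 was 1.06 times as high. Wipi1, Wipi2 and Atg2a differed by -0.09, -0.02 and 0.06.

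The conjugation enzymes attach Atg12 to Atg5 and a lipid to the ATG8 proteins: Atg7 activates both, Atg10 carries Atg12, Atg3 carries ATG8, Atg16l1 places the reaction on the membrane, and Atg4b trims ATG8 beforehand. Atg3 had the smallest unadjusted p of the 38 genes. The gene lies at chr16:45158785-45188538 on the plus strand. It stood at 1071, 1527, 763, 1244 and 943 in KO replicates 1 to 5, with a mean of 1109.6 ± 292, and at 1432, 1699, 1535 and 1315 in WT replicates 1 to 4, with a mean of 1495 ± 163 (n = 5 and 4, SD). KO replicate 2 lay among the WT libraries and the other 4 KO libraries below them, so the ranges overlapped. The log2 difference was -0.46 (SE 0.22, interval -0.93 to -0.002, limma adjusted p = 0.55). Atg5 was the most abundant of the step, at 6175, 5154, 4390.0, 4338 and 3213 in KO and 5122, 4860.4, 6710.3 and 5469 in WT. KO replicate 1 and WT replicate 3 were high and KO replicate 5 was the lowest. Its difference of -0.27 (SE 0.16, limma adjusted p = 0.65) was -0.01 within the 6 deeper libraries, which leave out both KO replicate 5 and WT replicate 3. Atg7, which had the smallest standard error of the step, had 4009 ± 359.6 in KO and 4004 ± 363 in WT (n = 5 and 4, SD) and an interval of -0.25 to 0.25. Atg4b, Atg10, Atg12 and Atg16l1 differed by 0.11, 0.06, 0.16 and -0.07.

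Genes of autophagy and lysosomes can be driven by TFEB and its relatives, transcription factors that bind a palindrome around CACGTG. RefSeq promoters (GRCm38.p6), from 250 bases before the start site to 50 after it, were found for 32 of the 38 genes and not for Rb1cc1, Becn1, Pik3c3, Atg12, Atg16l1 and Map1lc3a. CACGTG, which reads alike on both strands, was present in 6 of the 32 (18.8%), beside 11.2% of the 11283 table genes with a promoter and 7.15% of all 32851 promoters. The longer TCACGTG, counted on both strands and always containing the shorter one, was in 5 and TCACGTGA in 1, beside 6.63% and 1.99% of the table genes. The genes were Atg3, Atg5, Atg7, Atg14, Rheb and Rragc. The stretches around the matches are shown for 4 of them, 5′ to 3′ with CACGTG in capitals, so that the letters beside the palindrome can be compared. A stretch was printed only where the match lay before the RefSeq start site and little of the stretch was annotated exon, which left out Atg14 and Rheb. In the Atg3 stretch the last 9 bases are exon in GENCODE.
Atg3: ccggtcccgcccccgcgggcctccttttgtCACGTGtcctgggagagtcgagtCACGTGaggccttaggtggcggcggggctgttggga
Atg5: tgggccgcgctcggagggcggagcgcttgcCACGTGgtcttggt
Atg7: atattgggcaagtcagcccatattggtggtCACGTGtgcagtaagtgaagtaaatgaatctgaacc
Rragc: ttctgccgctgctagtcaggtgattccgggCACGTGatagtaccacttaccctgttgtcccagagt
They lie on the plus strand at chr16:45158705-45158793, chr10:44268295-44268338, chr6:114670934-114670999 and chr4:123917291-123917356, and the Atg7 stretch falls inside an intron of longer GENCODE transcripts. Atg3 holds the palindrome at 94 and at 71 bases before its RefSeq start site, which lies downstream of the GENCODE gene start given above. The 6 genes with the palindrome had log2 differences from -0.46 to 0.002 (median -0.05), and the 26 without it from -0.54 to 0.46 (median -0.02), with 0 called in either set. A match shows only that these letters occur, not that a factor binds there.

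The ATG8 proteins are the ubiquitin-like tags that end up on the autophagosome membrane, in an LC3 branch (Map1lc3a, Map1lc3b) and a GABARAP branch (Gabarap, Gabarapl1, Gabarapl2). Gabarap and Map1lc3b were the most abundant of all 38 genes. Gabarap (chr11:69991143-69994951, plus strand) stood at 40904, 44746, 40858, 49381 and 41317 in KO and 43225, 44239, 42220.0 and 45114 in WT. The WT libraries lay inside the KO range, and the log2 difference was -0.01 (SE 0.07, interval -0.17 to 0.14, limma adjusted p = 0.97). Map1lc3b, named here after its values were seen, had 45020.5, 41362, 45699, 42106 and 42772 in KO and 46071, 42818, 41198 and 40504 in WT. Its log2 difference was 0.03 (interval -0.12 to 0.17), and it and Gabarap had the smallest standard errors of the 38 genes. Gabarapl1 had 3158, 2842, 3269.5, 2800.3 and 4131 in KO and 3525, 3813, 3299 and 4117 in WT. KO replicate 5 and WT replicate 4 were the highest and nearly equal, and the difference was -0.20 (SE 0.14, limma adjusted p = 0.72). Gabarapl2 and Map1lc3a differed by -0.02 and -0.15.

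**Figure D3:**
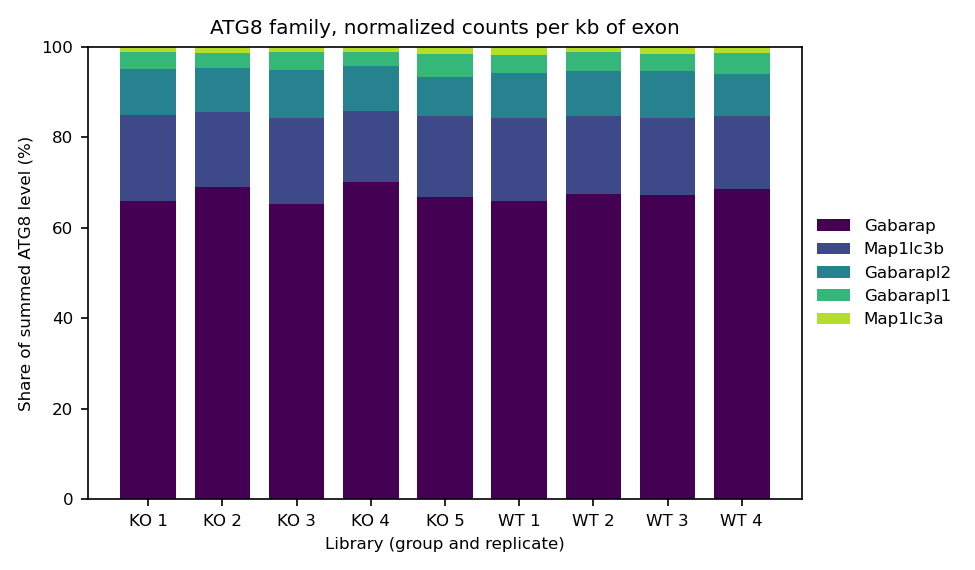
Share of the summed level of the ATG8 genes (y, percent, normalized counts per kb of exon) in each of the 9 libraries (x). Gabarap made up between 65.2% and 70.2% of the sum in every library, and the makeup of KO and WT libraries is alike.

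Per length of exon Gabarap led by a wide margin, with 67.5% ± 2.1 of the summed ATG8 level in KO and 67.4% ± 1.1 in WT (n = 5 and 4, SD). Map1lc3b followed with 17.6% ± 1.5 and 17.1% ± 0.9, and Gabarapl2 with 9.82% ± 0.77 and 9.82% ± 0.46. Gabarapl1 held 3.77% ± 0.77 and 4.22% ± 0.34, and Map1lc3a 1.30% ± 0.19 and 1.44% ± 0.31. The order was the same in both groups. These shares rest on the summed length of annotated exons, and the transcript forms in use here are not known; Map1lc3b was taken with 5182 exonic bases and Gabarap with 1351.

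Cargo receptors tie ubiquitin-marked material to ATG8 proteins. Sqstm1 (chr11:50199366-50210827, minus strand), the gene of p62, stood at 17135, 17180.3, 17622, 18966 and 18304 in KO and 18952, 21314, 16059.6 and 19891 in WT. Both the highest and the lowest value belonged to WT libraries. The mean was 17842 ± 785 in KO and 19054 ± 2220 in WT (n = 5 and 4, SD), a log2 difference of -0.09 (SE 0.09, interval -0.27 to 0.10, limma adjusted p = 0.81). Nbr1, a relative of p62, had 3589.8 to 4938 in KO and 3301 to 4106 in WT and differed by 0.10. Optn, which also acts in clearing bacteria and mitochondria, had 271 to 881 in KO and 305 to 739 in WT. Its libraries differed widely within both groups, and the log2 difference was small beside that (-0.15, interval -0.99 to 0.69).

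The mTORC1 core is the kinase Mtor with its substrate-binding partner Rptor (raptor) and the small subunit Mlst8. Mtor (chr4:148448611-148557683, plus strand) stood at 1186, 1449.5, 1141, 1261 and 1018 in KO and 740.4, 967, 984 and 1169 in WT. WT replicate 1 was the lowest and KO replicate 2 the highest, with overlap between 1018 and 1169. The log2 difference was 0.34 (SE 0.21, interval -0.10 to 0.78, limma adjusted p = 0.67), and 0.57 within the 6 deeper libraries. Rptor pointed the other way, at -0.29 (KO 774 to 1151, WT 941 to 1398). Mlst8, singled out after its values were seen, had the largest difference of the 38 genes, -0.54, with 494, 230.3, 348, 799 and 485 in KO and 672, 570.1, 686 and 608 in WT. Its KO libraries ranged on both sides of the closely spaced WT libraries, and the interval ran from -1.30 to 0.21 (limma adjusted p = 0.69). Mlst8 is also a subunit of mTORC2.

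Upstream of mTORC1, the GTPase Rheb switches the kinase on, Tsc1 and Tsc2 switch Rheb off, and the Rag GTPases Rraga and Rragc bring mTORC1 to the lysosome. All 5 log2 differences were below 0, from -0.53 to -0.05, where 47.6% of all genes lay below 0. Of the 5, 0 passed (0.309% of all genes did). Above 0 with limma-voom were Rheb and Rragc, at 0.03 and 0.02, and without WT replicate 3 they were at 0.05 and 0.01. Within the 6 deeper libraries and with depth class as a term, Rheb was above 0 as well, at 0.03 and 0.02. Rheb was the most abundant, at 7726, 7141, 7155, 8931 and 8806 in KO and 6616, 8615, 10021 and 7838 in WT. Both extremes were WT libraries, and the difference was -0.05 (SE 0.12, limma adjusted p = 0.93). Tsc1 (chr2:28641228-28691167, plus strand) had 367, 693, 683, 532 and 459.5 in KO and 647, 660.5, 862 and 949 in WT. The WT replicates 3 and 4 lay above all other libraries, whereas the WT replicates 1 and 2 lay among the KO values. The difference was -0.53 (SE 0.29, interval -1.14 to 0.08, limma adjusted p = 0.61) and -0.25 within the 6 deeper libraries, which leave out the WT replicates 3 and 4. Tsc2 differed by -0.19 (2051 ± 229 in KO and 2334 ± 186 in WT, n = 5 and 4, SD). Rraga differed by -0.26, and by -0.54 without WT replicate 1, and Rragc by -0.05. Tsc1 held 0.22 ± 0.04 of the Tsc2 level per length of exon in KO and 0.28 ± 0.07 in WT, ranges that overlapped, as they did for all 8 related pairs examined.

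Per kilobase of exon the 38 genes spanned from 53.8 normalized counts for Wipi1 to 32239.8 for Gabarap. Below Gabarap and Map1lc3b came Sqstm1 at 6511, Gabarapl2 at 4695 and Rheb at 4537. Gabarapl2 and Rheb did not differ beyond their spread (4680.3 ± 487 and 4457 ± 488 in KO). Atg5, Gabarapl1 and Rraga followed at 2146, 1889.8 and 1717, with overlapping spreads. The lowest 6, from Mtor at 125 down through Wipi2, Pik3r4, Tsc1 and Atg2b to Wipi1, held genes of 4 different steps. The 5 highest genes thus held 3 of the ATG8 family, a cargo receptor and the GTPase Rheb.

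**Figure D4:**
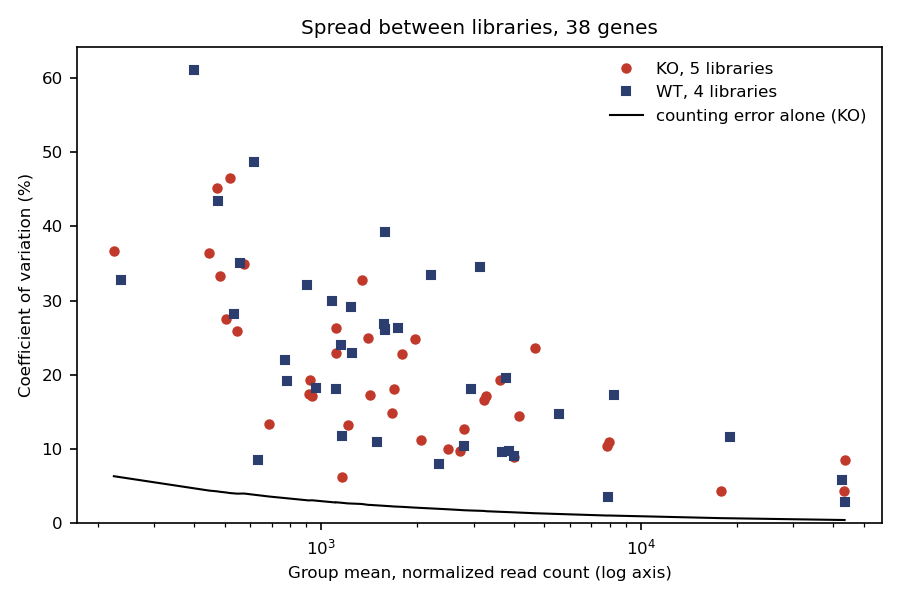
Coefficient of variation between libraries (y, percent) against the group mean in normalized counts (x, log axis) for the 38 genes in KO (circles) and WT (squares). The line is counting error alone in the KO libraries. Every KO point lies above the line, from 4.33% for Map1lc3b to 46.5% for Optn.

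Within the KO group the coefficient of variation was above the value that counting error alone would give in all 38 genes, by 2.26 times for Atg9a, where the gap was smallest. The median was 17.3% in KO and 20.8% in WT. Counting error alone, worked out for the KO libraries only, would give between 0.451% and 6.35%. The range in WT went from 2.87% for Gabarap to 61.1% for Atg2b.

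The wider pathway was read from 8 further lists with 105 genes, all of them measured. None passed an adjusted p of 0.05 (limma), 5 had an unadjusted p under 0.05 (9.14% of all genes did), and in 2 there was no overlap of the KO range with the WT range (3.15% of all genes). The median log2 difference was -0.03, with 48 above and 57 below 0. Among 14 genes of autophagosome fusion with the lysosome, 9 lay above 0 and 5 below. Vamp8, a membrane fusion protein of endosomes and autophagosomes, stood at 21931, 23962, 20805, 22410.5 and 19659 in KO and 23324.5, 25149.8, 27698 and 27685 in WT. Its ranges overlapped by WT replicate 1 and KO replicate 2 only, and its log2 difference was -0.25 (SE 0.08, interval -0.43 to -0.08, limma adjusted p = 0.27). Vps11, a core subunit of the tethering complexes HOPS and CORVET, had 3428 to 4179 in KO and 2648 to 3296 in WT, ranges that did not overlap (0.29, limma adjusted p = 0.48).

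Of 17 other cargo receptors and mitophagy genes, 9 lay above 0 and 8 below. Tax1bp1, a ubiquitin-binding receptor with the smallest p of them, had a lower value in each KO library than in any WT library. It had 14720.0, 15360.0, 14859, 9448 and 15097 in KO and 15745, 15389, 17280.5 and 16631 in WT. KO replicate 2 and WT replicate 2 lay close together, KO replicate 4 stood far below the rest, and the difference of -0.25 had a limma adjusted p of 0.58. Among 12 further ATG and class III PI3-kinase factors 4 lay above 0 and 8 below, and Vmp1, a membrane protein of early autophagosome formation, had the smallest p (-0.19, interval -0.39 to 0.003, limma adjusted p = 0.55).

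The lists of mTORC1 control were likewise without a call. Ragulator anchors the Rag GTPases, and the folliculin complex acts on Rragc. Their list, which also held Rragb, Rragd and Slc38a9, had 10 of 11 genes below 0 and a median of -0.17. The lowest was Rragd, at -2.03 (interval -4.06 to 0.009, limma adjusted p = 0.55), with 3.8 to 226 in KO and 179 to 325 in WT. The gene above 0 was Rragb, which was at the floor of 1 in KO replicates 2 and 5 and in WT replicate 2. Of the 11 genes, 2 had an unadjusted p under 0.05 (limma). Over all genes tested 47.6% lay below 0 and 9.14% had such a p. Fnip2, a folliculin partner, stood at 1925, 1431, 2473, 2049 and 1743 in KO and 2579, 2653, 2652 and 2278 in WT. KO replicate 3 lay among the WT libraries and the other 4 below them, and the difference was -0.42 (interval -0.77 to -0.07, limma adjusted p = 0.43). Of 8 genes of the TFEB family and lysosomal calcium signalling, 5 lay above 0 and 3 below. Tfeb itself had 219.7, 249.8, 178, 316 and 538 in KO and 537, 522, 454 and 333 in WT, with KO replicate 5 as the highest of all 9 libraries (-0.70, interval -1.56 to 0.16, limma adjusted p = 0.63). The 17 genes of GATOR, KICSTOR and the amino acid sensors had 7 above and 10 below 0. Among 15 mTORC1 inhibitors, substrates and mTORC2 genes, 8 lay above 0 and 7 below. Akt1s1 (PRAS40), an mTORC1 inhibitor, had 88.9 to 216 in KO and 47.5, 27.7, 211 and 13.6 in WT. WT replicate 3 lay among the KO libraries, and the difference of 1.74 had an interval from 0.04 to 3.43 (limma adjusted p = 0.53). Of 11 AMPK and LKB1 genes 5 lay above and 6 below 0, with Prkab1, an AMPK subunit, at 0.46 (limma adjusted p = 0.69).

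**Figure D5:**
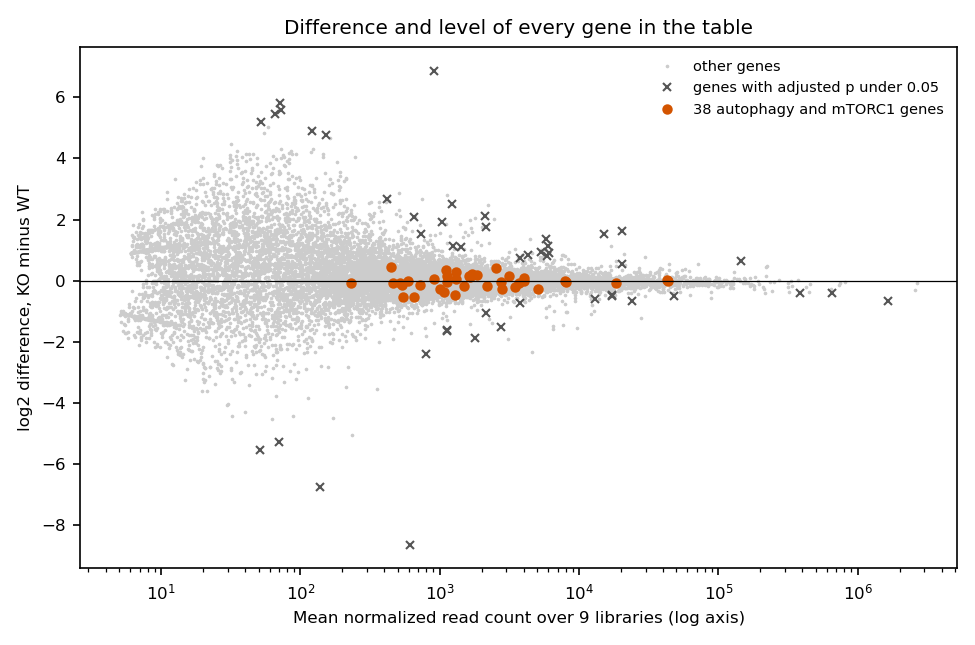
log2 difference KO minus WT (y) against the mean normalized count over 9 libraries (x, log axis) for all 14905 genes; the 38 autophagy and mTORC1 genes are orange and the 46 genes with an adjusted p under 0.05 are crosses. The orange points lie between -0.54 and 0.46, inside the cloud of other genes.

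Exons of 14 of the 38 genes overlap annotated exons of another gene, such as Sqstm1 with Mrnip, Becn1 with Cntd1 and Tsc2 with Pkd1, on the opposite strand. Atg9a overlaps Ankzf1 on the opposite strand and also Gm29253 on the same strand, where the strand of a read cannot tell the genes apart. The use of strand in counting is not given in the sources used here, so reads of such partners may be part of these values.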

How the data were processed

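Messenger RNA of F4/80 and CD11b double-positive cells was selected on oligo-dT beads and sequenced as strand-specific libraries, per the labels' protocols. Per the submitters' processing notes, the genome build was mm10 and the tools included DESeq2, HISAT, Partek and CASAVA 1.8.2. The annotation, the strand setting and the gene filter: not given in the sources used here. Per gene, the deposited signal is a read count divided by 1 factor per library, with values under 1 set to 1. This was read from the values, of which 99.5% to 99.7% above the floor were whole multiples of 1 step within 0.1 of a step.

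KO and WT (5 and 4 libraries) were compared with limma 3.58.1 (R 4.3.3) on log2 of the value plus 1, with a mean-variance trend and a single genotype term, and p-values were adjusted by Benjamini-Hochberg across all 14905 genes. A filter that asked for a value of 1 in 4 libraries took out 0 genes. Simulated data with known changes were used to test the code. Alternatives were pseudocounts of 0.1 and 10, other filters, median-ratio and quantile scaling, robust moderation, the replicate number as a block, each library left out, limma-voom, and depth class. The members and lists were chosen with earlier results of these data known. Values in every library are printed for genes that passed, whose ranges were apart, or that had the smallest p or highest mean of their step; pathway genes are named if they passed, had ranges apart or had the smallest p of their list, and other values were picked after seeing them. The result of 1 gene that this rule names is not reported here. Of the pathway genes, 6 were matched through an older symbol in RefSeq. Exon lengths are unions over GENCODE M21 basic transcripts on GRCm38. Counting error covers sampling only. Figures were drawn with matplotlib 3.10.9 under Python 3.11.15.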

Additional observations from a re-analysis of the deposited data

Results flagged for a closer look

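In 7 of 92 groups of libraries examined for the genes named here, 1 library stood apart from the rest of its group by Dixon's criterion, which chance alone meets in about 1 of 20 groups. Among the 38 genes 5 such libraries were found. Ulk1 was at 1857 normalized counts in KO replicate 3, with the other KO libraries between 1273 and 1385. Atg13 was at 2200 in WT replicate 2, with the others between 1342 and 1404. Rb1cc1 was at 2830 in KO replicate 2, with the others between 1676 and 1831. Atg7 was low in WT replicate 2, at 3460 against 4167 to 4197, and Gabarapl2 was low in WT replicate 4, at 7491 against 8009 to 8091. In the wider pathway Vps11 was low in WT replicate 1 (2648 against 3250 to 3296) and Tax1bp1 in KO replicate 4 (9448 against 14720 to 15360). WT replicate 2 accounts for 2 of these, and the WT replicates 1 and 4 and the KO replicates 2 to 4 account for 1 each.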

How the results depend on the processing

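None of the 38 genes and none of the 105 further pathway genes passed an adjusted p of 0.05 in any of the 20 alternatives run (adjusted p of the 38 genes from 0.17 to 1 (limma); main analysis: 1 and 5 genes at an unadjusted p under 0.05). The count over all genes, 46, was 25 with limma-voom on recovered reads, 0 with the replicate block (1104 at an unadjusted p under 0.05), 0 within the 6 deeper libraries (1039 unadjusted), and from 5 (without KO replicate 3) to 38 (without WT replicate 1) when 1 library was left out. Leaving out KO replicates 1 to 5 in turn gave 8, 14, 5, 8 and 9, and WT replicates 1 to 4 gave 38, 10, 18 and 19; these fits hold fewer libraries, and no other cause was tested. The replicate numbers did not pair the libraries: same-numbered deviations correlated at -0.021, -0.0016, 0.016 and 0.017, and 2 of 4 KO libraries correlated best with their own number. Of 760 fits of the 38 genes 699 kept their sign, and 18 genes kept it throughout; those that changed had a size of at most 0.21 in the main analysis. The log2 differences of changed sign within the deeper libraries were -0.12 for Rb1cc1, -0.32 for Atg2a, -0.12 for Atg10, -0.0298 for Map1lc3b, 0.0036 for Gabarap, 0.017 for Gabarapl2, 0.084 for Optn and 0.0295 for Rheb. With limma-voom they were 0.0101 for Atg14, 0.013 for Wipi2, 0.067 for Gabarap, 0.068 for Gabarapl2, 0.0303 for Rheb and 0.024 for Rragc. With depth class as a term they were 0.00085 for Atg14, 0.12 for Wipi2, -0.067 for Atg2a and 0.017 for Rheb. With the replicate block, in which KO replicate 5 is alone in its block and adds nothing, they were -0.015 for Atg7, -0.047 for Atg10, 0.00497 for Gabarap and 0.044 for Gabarapl2. With quantile normalization they were 0.028 for Gabarap and 0.0092 for Gabarapl2. Leaving out 1 library gave ranges that crossed 0: Atg10 -0.098 to 0.24, Atg101 -0.013 to 0.31, Atg14 -0.17 to 0.091, Atg16l1 -0.33 to 0.19, Atg2a -0.14 to 0.23, Atg4b -0.025 to 0.25, Atg7 -0.067 to 0.043, Atg9a -0.032 to 0.32, Becn1 -0.21 to 0.022, Gabarap -0.059 to 0.00901, Gabarapl2 -0.059 to 0.044, Optn -0.41 to 0.053, Pik3r4 -0.24 to 0.084, Rheb -0.15 to 0.050, Rragc -0.11 to 0.013, Ulk2 -0.10 to 0.37, Wipi1 -0.37 to 0.15 and Wipi2 -0.30 to 0.23. A planned edgeR test on recovered reads was not run, because the floor of 1 hides the lowest counts. The shallower libraries hold 1 KO library, too few for a test of their own.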

Other observations

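Rraga, a GTPase that recruits mTORC1 to the lysosome, had 1664, 4270.0, 3297 and 3335 normalized counts in WT replicates 1 to 4 and 2236 to 2869 in the KO libraries. With all 9 libraries the log2 difference was -0.26 (limma adjusted p = 0.76), and without WT replicate 1 it was -0.54 (adjusted p = 0.17, the lowest of any member in any alternative run).

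Some genes were even in 1 genotype and uneven in the other. Mlst8 had a coefficient of variation of 45.2% in KO and 8.57% in WT, whereas Atg9a had 6.25% and 29.9%, and Rraga 9.95% and 34.5%. These contrasts were picked after the values were seen, with 5 and 4 libraries, and the difference in spread was not tested.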
